A study of Mus musculus with 12 samples.

Results

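The growth hormone and IGF axis of the liver was followed through 10 genes, chosen by name as Igf1, Igf1r, Igfals, Igfbp2, Igfbp3, Igfbp4, Ghr, Prlr, Socs2 and Cish. All 10 were among the 46095 genes of the count table, and all 10 were among the 14666 genes that passed the filter on low counts and were tested. The libraries came from hepatocellular carcinomas (HCC) that diethylnitrosamine, a carcinogen that hepatocytes activate, had induced in the livers of mice. Pck1-null mice (KO) gave 7 libraries and wild-type mice (WT) gave 5, and the mice of both genotypes had received the carcinogen. Pck1 encodes the cytosolic phosphoenolpyruvate carboxykinase of glucose synthesis. The labels name no strain, age, sex, carcinogen dose or design of the null allele. They also do not say that each library came from a separate animal, so a p-value here measures only the spread among the libraries.

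Growth hormone from the pituitary binds its receptor on hepatocytes, where the kinase JAK2 activates the transcription factor STAT5. STAT5 raises the IGF-I gene and the gene of the acid-labile subunit, and it also raises SOCS2 and CIS, which damp the receptor in a feedback loop. The liver supplies most of the IGF-I in blood, where it travels in a ternary complex with IGFBP-3 and the acid-labile subunit, while other binding proteins hold it in smaller complexes. In mice the pattern of growth hormone release differs between the sexes and sets many sex-biased liver genes.

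Short promoter stretches are shown first, because a STAT5 site of the form TTCNNNGAA links receptor signalling to some of these genes. The motif is a palindrome, so a match on one strand is a match on both. Windows from 250 bases before to 50 bases after each annotated start were taken from RefSeq (GRCm38.p6) for 9 of the 10 genes, all but Socs2. Of their 15 windows, 4 held the motif, against 8.3% of the 32851 windows of all genes. Cish held 2 motifs in 1 window, and 0.457% of all windows held at least 2. In the lines below the motif stands in capitals and every stretch reads along the plus strand, which is the coding strand of these 3 genes. The Cish stretch spans chr9:107296654-107296683, the first Igfals stretch chr17:24877600-24877629, the second chr17:24878165-24878194 and the Prlr stretch chr15:10223788-10223817.
Cish: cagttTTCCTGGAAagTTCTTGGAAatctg
Igfals, first start: tctataatTTCTCAGAAaagaggctgagga
Igfals, second start: gccaggtgTTCCTAGAAgaggccctggggg
Prlr, second start: aaaatgagTTCTAGGAAtaagggatatcag
The first bases of the Cish motifs lay at positions 1 and 12, counted from 1 at the annotated start. The Igfals motifs began at position -236 of the first start and -58 of the second, and the Prlr motif began at -110 of its second start. A match is a run of letters and was not tested as a binding site. Windows of Ghr, Igf1, Igfbp2, Igfbp3, Igfbp4 and Igf1r had no match, which says nothing of sites elsewhere.

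Total counts ran from 17462102 to 46747125, with 7 libraries under 30000000 (4 KO and 3 WT, called shallower) and 5 above (3 KO and 2 WT, called deeper). Xist, which coats the silenced X chromosome, was over 10 CPM in 5 of 7 KO libraries and in 1 of 5 WT libraries, WT replicate 4, and these are called Xist-high and the others Xist-low. Fits below with the Xist class as a covariate thus have only 1 WT library in the Xist-high class and 2 KO libraries in the Xist-low class. Raw counts summed over the Y-linked genes Ddx3y, Uty, Eif2s3y and Kdm5d were 0 to 5 in the Xist-high libraries. In the Xist-low libraries they were 1463 to 5901. The Xist classes thus follow the sex that these genes mark, and sex is partly confounded with genotype. CPM are counts scaled to a common library size with TMM factors. Pck1 itself was at 111 to 1167 CPM in KO and 1063 to 5822 CPM in WT, so KO replicate 3 lay above WT replicate 4. All 14 hepatocyte markers had counts, and their summed level was 110890 to 235931 CPM in KO and 94856 to 311478 CPM in WT. In edgeR's fit 12 of the 14 had a negative log2 fold change, against 46.3% of all genes. Their median was -0.22, against 0.03 over all genes. At an unadjusted p under 0.05, 1 was lower and 0 were higher (7.44% and 7.25% of all genes). Of 10 neutrophil markers, 8 were higher in KO at an unadjusted p under 0.05 in edgeR's test (7.25% of all genes). The 10 markers summed to 34.3 to 1623 CPM in KO and 30.2 to 55.5 CPM in WT. KO replicates 3, 4 and 6 held sums of 1623, 254 and 406 CPM and the other 4 KO libraries 34.3 to 44.3 CPM, within the WT range, and of the 8 markers 1, Mmp8, had an exact permutation p under 0.05. Of 12 endothelial markers 5 were lower in KO at an unadjusted p under 0.05 (7.44% of all genes). Their part in the values below was not tested. In bulk tissue, fewer cells of a type and less RNA per cell cannot be told apart.

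Across all tested genes, edgeR's quasi-likelihood test found 0 genes higher and 0 lower in KO at an adjusted p under 0.05 (0% of genes tested), and 0 of the 10 axis genes passed. With p unadjusted, 1064 genes (7.25%) were higher and 1091 (7.44%) lower at the 0.05 level. Of the 10 axis genes, 4 were lower at that level, namely Igfals, Igf1, Ghr and Prlr, and 0 were higher. DESeq2 called 247 higher and 242 lower genes at an adjusted p under 0.05, with none of the 10 among them, and limma-voom run without weights for the samples found 1 higher and 4 lower, again none of the 10. Limma-voom with sample weights called 938 higher and 1200 lower genes, and 5 of the 10, with Igf1, Igfals, Ghr and Prlr lower and Igfbp3 higher. The 10 genes had a median log2 fold change of -0.46, against 0.03 over all genes tested, and 7 of the 10 were negative, against 46.3% of all genes. A log2 fold change of -1 or lower was found for 4 of the 10, against 4.58% of all genes, and an exact permutation p under 0.05 also for 4 of the 10, against 13.7%. Exact permutation p of single genes are printed without adjustment throughout. Adjusted over all tested genes, they were 0.270 for Igf1, 0.285 for Ghr, 0.290 for Prlr and 0.300 for Igfals. For 0 of the 10 did every KO library lie below every WT library (0.58% of all genes) or above it (0.634%).

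**Figure D1:**
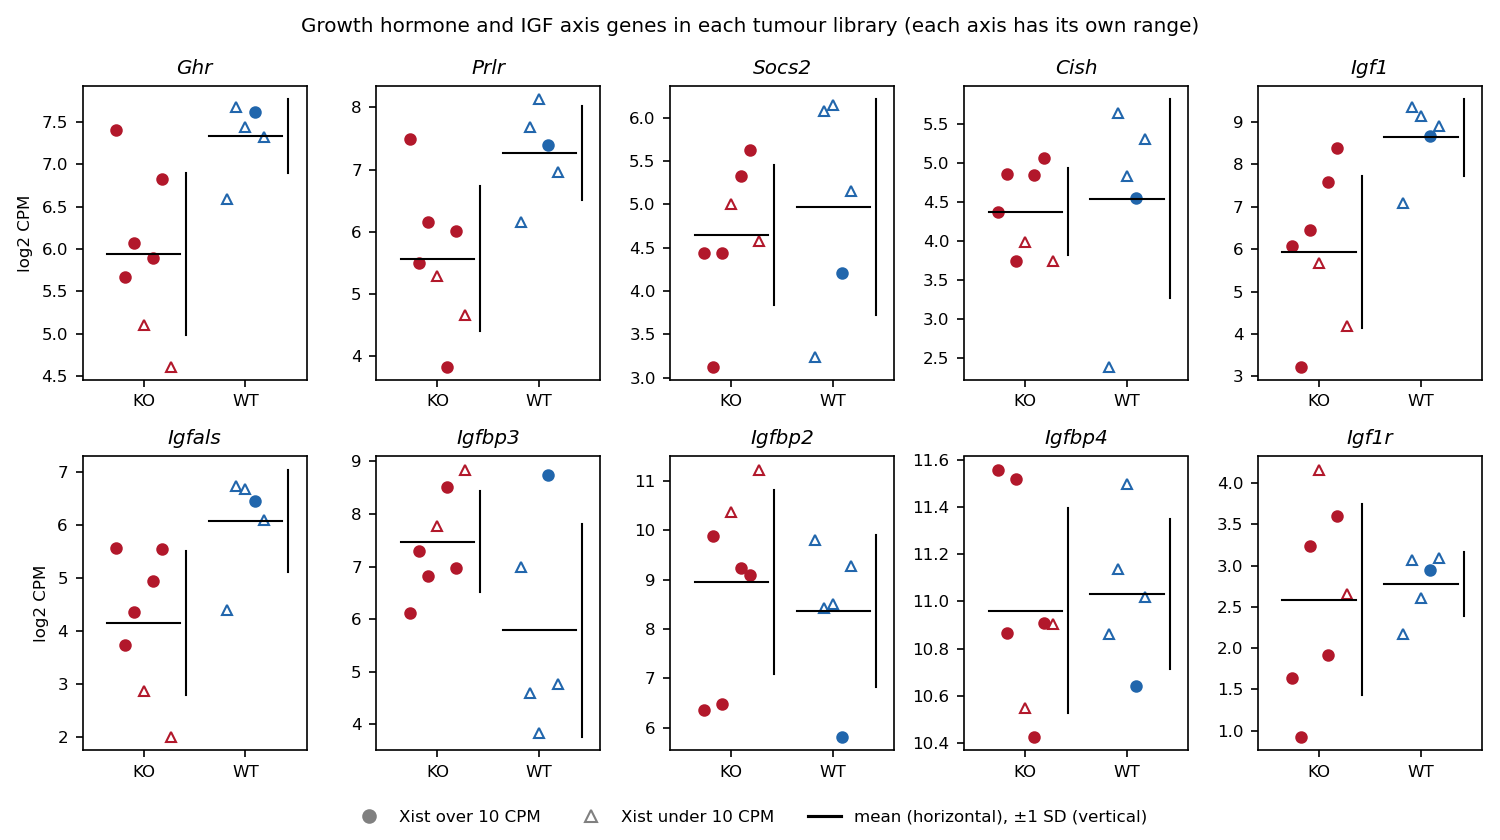
Log2 CPM of the 10 genes in each library, with KO on the left and WT on the right of each panel. Filled circles are libraries with Xist over 10 CPM and open triangles those under it, and lines give the group mean and 1 SD. For Ghr, Prlr, Igf1 and Igfals most KO libraries sit below the WT libraries, while the groups overlap widely for Socs2, Cish, Igfbp4 and Igf1r.

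Ghr, the growth hormone receptor (chr15:3317755-3583352, coordinates on GRCm38.p6 throughout), had lower values in KO than in WT tumours. It lay between 24.4 CPM (KO replicate 7) and 169 CPM (KO replicate 1) in KO, with a median of 59.4 CPM, and at 96.2, 204, 173, 197 and 160 CPM in WT replicates 1 to 5. In KO, 5 of 7 lay under the whole WT range, and KO replicates 1 and 6 (113 CPM) lay within the WT range. The fitted log2 fold change was -1.17 ± 0.42 (SE), a 2.24-fold lower level (edgeR adjusted p = 0.251). Mean log2 CPM was 5.94 ± 0.96 (SD, n = 7) for KO and 7.33 ± 0.44 (SD, n = 5) for WT, with a two-sided exact permutation p = 0.0177. With the Xist class as a covariate the value was -1.97, and within the shallower and the deeper libraries it was -1.002 and -1.42.

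Prlr, the prolactin receptor (chr15:10177238-10349190), is a cytokine receptor related to Ghr, lies on the same chromosome and is expressed more in female than in male mouse liver. Its levels were 14.2 CPM (KO replicate 5) to 180 CPM (KO replicate 1) in KO, with a median of 45.2 CPM. In WT replicates 1 to 5 they were 71.7, 206, 280, 168 and 124 CPM. All KO libraries but replicate 1 lay under the WT range, by a small margin for KO replicate 3 at 71.5 CPM. The log2 fold change was -1.43 ± 0.53 (SE; edgeR adjusted p = 0.265), and the exact permutation test gave p = 0.0215. Without WT replicate 3 the log2 fold change was -1.18 (edgeR adjusted p = 0.420) and its unadjusted p was no longer under 0.05. The Xist-high libraries, 5 of which were KO, held 14.2 to 180 CPM in KO and 168 CPM in the 1 WT library, and the Xist-low libraries held 25.3 and 39.3 CPM in KO and 71.7 to 280 CPM in WT. In the Xist-high class KO replicate 1 lay above the 1 WT library, and in the Xist-low class both KO libraries lay below all 4 WT libraries.

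The feedback genes of the receptor differed by less than their spread. Socs2 (chr10:95383903-95417321), whose loss causes overgrowth in mice, lay between 8.67 CPM (KO replicate 2) and 49.4 CPM (KO replicate 6) in KO, with a median of 23.9 CPM. In WT replicates 1 to 5 it was at 9.38, 67.7, 70.6, 18.4 and 35.4 CPM. Its log2 fold change was -0.52 ± 0.49 (SE; edgeR adjusted p = 0.633; exact permutation p = 0.588). Cish (chr9:107296659-107302784), which encodes the STAT5-induced inhibitor CIS, ranged from 13.3 CPM to 33.5 CPM in KO, with a median of 20.7 CPM, and was at 5.17, 49.9, 28.5, 23.3 and 39.5 CPM in WT replicates 1 to 5. Every KO value of Cish fell inside the WT range. Its log2 fold change was -0.41 ± 0.43 (SE; edgeR adjusted p = 0.668; exact permutation p = 0.789). WT replicate 1 was the lowest WT library for both genes, and without it the Cish value was -0.68 (edgeR adjusted p = 0.278), with an unadjusted p under 0.05.

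Igf1 (chr10:87858265-87937047) encodes IGF-I, the growth factor that hepatocytes secrete under growth hormone, and of the 10 genes it had the widest range among KO tumours, as the highest level over the lowest, while Igfbp2 had the larger SD of log2 CPM (1.87, against 1.80 for Igf1). Its level was 9.32 CPM in KO replicate 2, 18.01 CPM in KO replicate 7, 50.6 CPM in KO replicate 4, 67.5 CPM in KO replicate 1, 87.0 CPM in KO replicate 3, 191 CPM in KO replicate 5 and 335 CPM in KO replicate 6. In WT replicates 1 to 5 it was at 137, 654, 570, 408 and 482 CPM. The KO libraries spanned 36-fold and the WT libraries 4.78-fold, and 5 of the 7 in KO were lower than the lowest WT library. The log2 fold change was -2.05 ± 0.73 (SE), a 4.15-fold lower level (edgeR adjusted p = 0.251). Mean log2 CPM was 5.94 ± 1.80 (SD, n = 7) for KO and 8.64 ± 0.90 (SD, n = 5) for WT, with an exact permutation p = 0.0126. With the Xist class as a covariate, and WT replicate 4 as the only Xist-high WT library, the fold change was -3.03 on the log2 scale. It was -3.04 within the shallower and -1.58 within the deeper libraries.

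Igfals (chr17:24877844-24882011) encodes the acid-labile subunit, which stabilises the circulating IGF complex and is made almost solely by hepatocytes. In KO it ran from 3.94 CPM (KO replicate 7) to 47.5 CPM (KO replicate 1), with a median of 20.6 CPM, and KO replicate 6 had 47.1 CPM. In WT replicates 1 to 5 it was at 21.2, 108, 103, 87.9 and 68.2 CPM. In KO, 4 libraries lay under the WT range, and all 7 lay below the other 4 WT libraries once WT replicate 1 was set aside. The log2 fold change was -1.67 ± 0.58 (SE), a 3.19-fold lower level (edgeR adjusted p = 0.246). A fit with Xist class as covariate gave -2.99 (edgeR adjusted p = 0.212). The exact permutation test gave p = 0.0253, and p = 0.0515 without WT replicate 2.

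**Figure D2:**
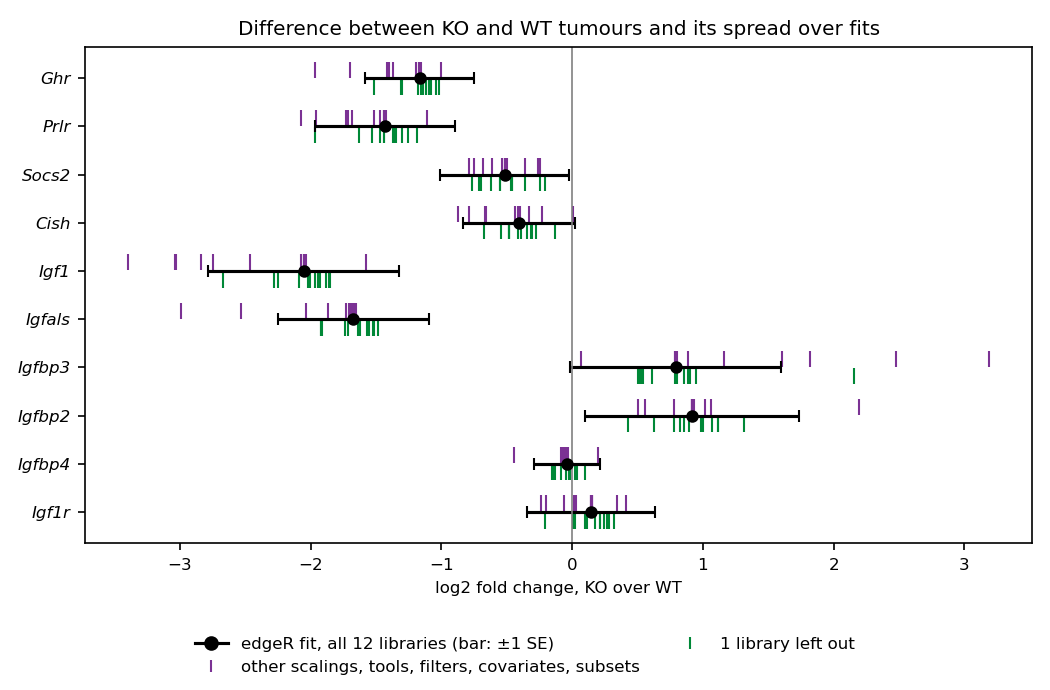
Log2 fold changes of KO over WT for the 10 genes, with the edgeR value over 12 libraries and 1 SE in black. Purple ticks are the other scalings, tools, filters, covariates and depth subsets, and green ticks leave out 1 library each. All ticks of Ghr, Prlr, Igf1, Igfals and Socs2 lie below 0, and those of Igfbp3 and Igfbp2 above 0.

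Igfbp3 (chr11:7206086-7215498), the main carrier of IGF-I in serum, is made in liver largely by non-parenchymal cells. It was at 69.4 CPM (KO replicate 1) to 458 CPM (KO replicate 7) in KO, with a median of 156 CPM. In WT replicates 1 to 5 it was at 127, 24.0, 14.2, 428 and 27.3 CPM. WT replicate 4 thus lay within the upper KO range, and WT replicates 2, 3 and 5 lay below every KO library. The log2 fold change was 0.79 ± 0.80 (SE; edgeR adjusted p = 0.657; exact permutation p = 0.0871). Without WT replicate 4 it was 2.16 ± 0.71 (edgeR adjusted p = 0.262; exact permutation p = 0.0121). The value was 0.07 within the shallower libraries, which hold WT replicate 4, and 3.19 ± 0.53 within the deeper ones (edgeR adjusted p = 0.292).

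Marker sums of non-parenchymal cells were set beside the Igfbp3 values. The 12 endothelial markers summed to 216 to 1059 CPM in KO and 562 to 951 CPM in WT, and WT replicate 4, the WT library highest in Igfbp3, was lowest of the WT libraries in them. The 11 Kupffer cell and macrophage markers summed to 425 to 2793 CPM in KO and 812 to 1747 CPM in WT, again lowest in WT replicate 4 among WT. The 11 stellate cell and fibroblast markers summed to 207 to 591 CPM in KO and 215 to 850 CPM in WT. In WT replicates 1 to 5 these sums were 850, 405, 215, 612 and 309 CPM. They were thus highest in WT replicates 1 and 4, the WT libraries highest in Igfbp3. In KO the lowest sum, 207 CPM in KO replicate 5, stood beside 364 CPM of Igfbp3. All markers of the 3 lists had counts. WT replicate 4 was also the only WT library with high Xist, and its sums of cholangiocyte markers (971 CPM) and adipose markers (148 CPM) were the highest of WT. Each of these sums was mostly 1 gene, Spp1 at 885 CPM and Cidec at 145 CPM. They thus say little of the other markers in either list, and Krt7, Krt19 and Epcam reached at most 11.1 CPM in WT. The part of these differences in the Igfbp3 values was not tested.

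Igfbp2 (chr1:72824480-72852474), a binding protein that fasting raises in liver, varied over 29.3-fold in KO, from 81.9 CPM (KO replicate 1) to 2398 CPM (KO replicate 7), with a median of 608 CPM. In WT replicates 1 to 5 it was at 891, 342, 361, 55.9 and 623 CPM. KO replicates 2, 4 and 7 lay above all WT libraries, while KO replicates 1 and 3 (89.6 CPM) were close to WT replicate 4, the lowest. The log2 fold change was 0.92 ± 0.82 (SE; edgeR adjusted p = 0.610; exact permutation p = 0.562). With the Xist class as a covariate it was 2.20 ± 0.77 (edgeR adjusted p = 0.344), with an unadjusted p under 0.05.

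Igfbp4 (chr11:99040005-99052655), a binding protein that holds IGF-I back from its receptor until a protease cleaves it, was the steadiest of the 10 genes. It lay between 1375 CPM and 3012 CPM in KO, with a median of 1916 CPM, and between 1597 CPM and 2887 CPM in WT, with a median of 2073 CPM. The log2 fold change was -0.04 ± 0.25 (SE; edgeR adjusted p = 0.954; exact permutation p = 0.759), and its sign changed when KO replicate 4, KO replicate 5 or WT replicate 3 was left out. Igf1r (chr7:67952257-68233668), the receptor tyrosine kinase for IGF-I, is low in adult hepatocytes. It was at 1.83 CPM (KO replicate 2) to 17.8 CPM (KO replicate 4) in KO, with a median of 6.22 CPM, and at 4.43 CPM to 8.5 CPM in WT, with a median of 7.63 CPM. Its fitted log2 fold change was 0.15 ± 0.49 (SE; edgeR adjusted p = 0.911). The difference of mean log2 CPM had the opposite sign, -0.19 (exact permutation p = 0.739). KO libraries lay both above (3) and below (3) the whole WT range of Igf1r.

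Set per length of annotated exons (CPM per kb, GENCODE M21), the levels had a different order in KO and WT. In KO the medians were 434 for Igfbp4, 329 for Igfbp2, 49.9 for Igfbp3, 6.82 for Igf1, 6.56 for Ghr, 6.49 for Igfals, 3.22 for Cish, 2.95 for Prlr, 2.51 for Socs2 and 0.371 for Igf1r. In WT they were 469 for Igfbp4, 196 for Igfbp2, 48.6 for Igf1, 27.7 for Igfals, 19.1 for Ghr, 11 for Prlr, 8.73 for Igfbp3, 4.44 for Cish, 3.72 for Socs2 and 0.455 for Igf1r. Within each genotype every pair of neighbours in this order had overlapping ranges over libraries, except Socs2 and Igf1r in WT (0.985 to 7.41 and 0.264 to 0.506 CPM per kb). Igf1 spanned 0.941 to 33.8 CPM per kb in KO and 13.8 to 66 in WT, and Igfbp3 22.2 to 146 in KO and 4.53 to 137 in WT. Exon lengths are those of all annotated transcripts together, so the per-length values are lower limits for genes read mainly as short transcripts.

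Across the 12 libraries, Ghr, Prlr, Igf1 and Igfals varied together in the pairs compared. Of 8 pairs compared, 5 had an adjusted permutation p under 0.05 for Pearson's r of log2 CPM. Ghr and Igfals gave r = 0.96 and Spearman's rho = 0.97 (permutation p = 1e-05 for each, the smallest that the resamples can give, adjusted p = 8e-05), and r = 0.91 without the 2 libraries farthest from the Ghr median. Ghr and Prlr gave r = 0.86 and rho = 0.90 (permutation p = 0.00043 and 0.00016, adjusted p = 0.00115 and 0.000427), with r = 0.86 without the 2 farthest libraries. Igf1 and Igfals gave r = 0.86 and rho = 0.90 (permutation p = 0.00035 and 0.00014, adjusted p = 0.00115 and 0.000427), with r = 0.86 likewise. Ghr and Igf1 gave r = 0.79 and rho = 0.83 (permutation p = 0.00245 and 0.00166, adjusted p = 0.0049 and 0.00332), with r = 0.72 likewise. KO replicate 1 departed from that pair, with 169 CPM of Ghr and 67.5 CPM of Igf1.

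Part of these relations is the difference between genotypes, so each was also taken with the KO and WT means subtracted and permuted within genotype. Ghr and Igfals then had r = 0.93 (permutation, adjusted p = 0.00048), Ghr and Prlr r = 0.73 (adjusted p = 0.0489), Igf1 and Igfals r = 0.75 (adjusted p = 0.0489) and Ghr and Igf1 r = 0.60 (adjusted p = 0.120). Within the 7 KO libraries Ghr and Igfals had r = 0.94 (exact permutation, adjusted p = 0.0143). The pair had r = 0.91 in the 6 Xist-high, 0.99 in the 6 Xist-low and 0.97 in the 7 shallower libraries, and no value was taken over the 5 deeper ones. These sets hold both genotypes and their group means were not subtracted, so their r includes the genotype difference. The highest Ghr levels, in WT replicates 2 and 4, stood in the libraries with the lowest summed hepatocyte markers, 107555 and 94856 CPM. The next highest, 173 CPM in WT replicate 3, stood beside the highest sum, 311478 CPM. Alb and Trf weigh most in these sums, with WT medians of 95171 and 45432 CPM, so the sums are not a measure of hepatocyte share. The relation of Ghr to these sums was not tested.

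The feedback genes gave values whose difference from those pairs was not tested. Ghr had r = 0.32 and rho = 0.34 with Socs2 (permutation p = 0.307 and 0.289, adjusted p = 0.307 and 0.289), and r = 0.42 and rho = 0.43 with Cish (permutation p = 0.175 and 0.162, adjusted p = 0.200 and 0.185). Without the 2 farthest libraries r was 0.48 for Socs2 and 0.29 for Cish. Socs2 and Cish with each other gave r = 0.62 and rho = 0.54 (permutation p = 0.0289 and 0.0738, adjusted p = 0.0463 and 0.0983), r = 0.71 without the 2 farthest libraries, and r = 0.11 within KO. Igf1 and Igfbp3 gave r = -0.53 and rho = -0.58 (permutation p = 0.0797 and 0.0527, adjusted p = 0.106 and 0.0843), and r = -0.47 without the 2 farthest libraries.

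**Figure D3:**
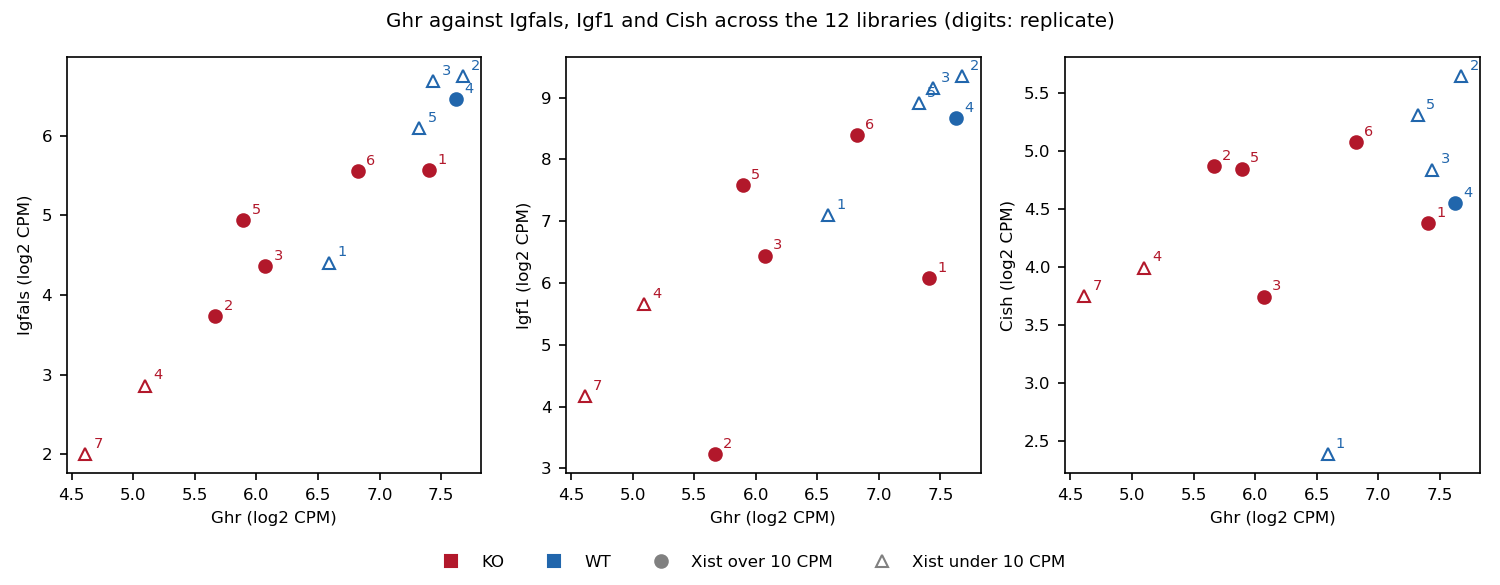
Log2 CPM of Igfals, Igf1 and Cish (vertical axes) against Ghr (horizontal axes), with KO in red, WT in blue, the Xist class as the marker shape and the replicate number beside each point. The Igfals points lie close to a line (r = 0.96), KO replicate 1 lies low for its Ghr level in the Igf1 panel, and WT replicate 1 lies lowest in the Cish panel.

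The 5 genes whose order across the 12 libraries was most like that of Igf1 were Ankrd33b, Hacd1 and Eci3 (Spearman's rho = 0.94 for each), Sdc1 and Tmem69 (0.93 for each). On the same measure Igfals stood at place 14 of all other tested genes (rho = 0.90), Ghr at 156 (0.83), Prlr at 1030 (0.66) and Socs2 at 1082 (0.65). All 12 points of such a comparison share their libraries and the genotype difference.

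The other genes of the receptor pathway were taken from a list of 20, all tested, of which 0 passed an adjusted p under 0.05 in edgeR's test. At an unadjusted p under 0.05, 2 were higher (7.25% of all genes) and 1, Ghr, was lower (7.44% of all genes), counts near the shares over all genes, and the list's median log2 fold change was -0.07, against 0.03 over all genes. At that level the higher ones were Jak2, the kinase bound to the receptor, at 15.9 to 31.0 CPM in KO and 12.2 to 20.6 CPM in WT (0.59 ± 0.21 SE), and Socs3, a cytokine-induced inhibitor, at 31.5 to 49.9 CPM in KO and 18.5 to 39.8 CPM in WT (0.44 ± 0.19). Irs2, an adaptor of insulin and IGF receptors, was at 0.50 ± 0.27, and Cux2, a female-biased repressor that growth hormone induces, was at -0.93 ± 0.52. Stat5b, the main STAT5 of liver and named here after its value was seen, had medians of 62.4 CPM in KO and 83.0 CPM in WT (-0.24 ± 0.17, edgeR adjusted p = 0.506).

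Of 21 genes of IGF ligands, receptors, binding proteins and their proteases, 18 were tested and 0 passed an adjusted p under 0.05 in edgeR's test. At an unadjusted p under 0.05, 1 was higher (7.25% of all genes) and 3 were lower (7.44% of all genes), among them Igf1 and Igfals, and the median log2 fold change was 0.23, against 0.03 over all genes. A single higher gene of 18 is near the share over all genes. It was Igfbp1, the insulin-repressed binding protein that neighbours Igfbp3 on chromosome 11. It was at 1390 to 9151 CPM in KO and 320 to 3724 CPM in WT (1.57 ± 0.62 SE, edgeR adjusted p = 0.285; exact permutation p = 0.0278). All 7 KO libraries lay above the WT mean of log2 CPM, while the lowest KO library lay below the WT median of 1573 CPM. Htra1, a secreted protease that can cleave IGF binding proteins, was at 2.42 to 21.3 CPM in KO and 4.22 to 273 CPM in WT (-3.93 ± 0.995, edgeR adjusted p = 0.195), with a WT median of 12.7 CPM. Igf2bp3, an RNA-binding protein of fetal and tumour tissue, was at 2.14 ± 1.14 (exact permutation p = 0.302). Its level was low, 0.131 to 14.0 CPM in KO and 0.0703 to 2.08 CPM in WT. Igfbp6 was at 2.05 ± 1.10, with 1.21 to 49.0 CPM in KO and 0.141 to 11.2 CPM in WT.

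The mix of binding protein transcripts per length varied among the tumours. Igfbp1 made up 53.2% to 88.9% of the summed Igfbp1 to Igfbp6 level (CPM per kb) in KO, with a median of 70.7%, and 28.1% to 71.9% in WT, with a median of 54.7%. Igfbp4 made up 6.95% to 26.5% in KO, with a median of 9.84%, and 12.4% to 48.5% in WT, with a median of 34.7%. Igfbp2 made up 0.718% to 20.8% in KO and 4.06% to 17.9% in WT, and Igfbp3 0.535% to 6.78% in KO and 0.24% to 18.3% in WT, where WT replicate 4 held the highest share. Such shares add up to a fixed sum, so a higher Igfbp1 share lowers the others, and the sum itself was 1714 to 6752 CPM per kb in KO and 746 to 3397 in WT. The mix was drawn up after the data were seen, and no test was made of it.

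**Figure D4:**
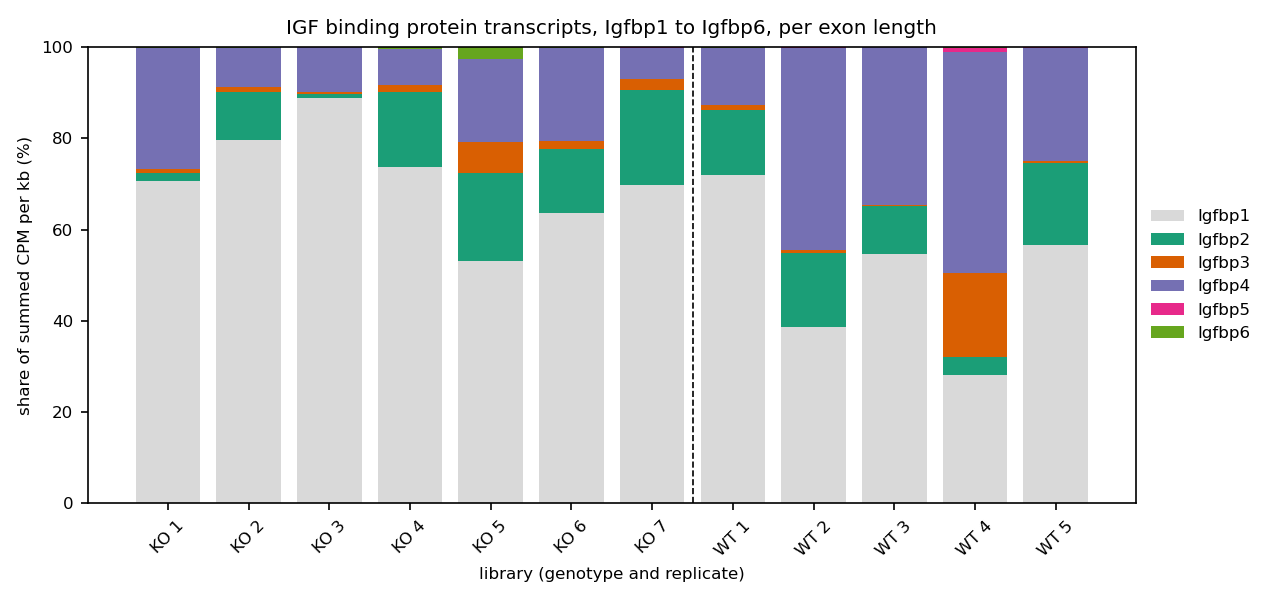
Share of each of Igfbp1 to Igfbp6 in their summed CPM per kb of exon, as stacked bars for the 7 KO libraries (left of the dashed line) and the 5 WT libraries. Igfbp1 fills 53.2% to 88.9% of the KO bars, and WT replicate 4 stands out by its Igfbp3 share of 18.3%.

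Genes that growth hormone sets in a sex-biased way in mouse liver were counted as a further readout of the axis. Of 20 male-biased genes 15 were tested, with 0 past an adjusted p under 0.05 in edgeR's test, 8 lower and 0 higher at an unadjusted p under 0.05 (7.44% and 7.25% of all genes), and a median log2 fold change of -1.17, against 0.03 over all genes. Of the 8 lower genes, Cyp4a12a, Cyp4a12b, Mup20 and Cyp7b1 had exact permutation p of 0.150, 0.148, 0.110 and 0.179, and the others p under 0.05. Mup3, a urinary protein, was at 0 to 3.36 CPM in KO and 0.805 to 21.3 CPM in WT (-3.70 ± 1.13 SE). Ugt2b38, a glucuronosyltransferase, was at -0.87 ± 0.29, and Nudt7, a peroxisomal coenzyme A hydrolase, at -0.86 ± 0.33. Cyp4a12a, a fatty acid hydroxylase, was at -4.39 ± 1.64, with 0.0222 to 5.88 CPM in KO and 0.0533 to 105 CPM in WT. Its medians were 0.0963 CPM in KO and 4.29 CPM in WT. Of 22 female-biased genes all were tested, with 0 past an adjusted p under 0.05, 6 lower (Prlr among them) and 0 higher at an unadjusted p under 0.05, against the same shares of all genes, and a median of -1.18. Cyp2a4, a steroid hydroxylase, was at 9.17 to 1855 CPM in KO and 1619 to 3283 CPM in WT (-2.14 ± 0.87), and Cyp17a1, also of steroid metabolism, at 2.55 to 132 CPM in KO and 70.9 to 786 CPM in WT (-2.94 ± 0.87). Cyp3a44 was at -3.28 ± 0.92 and Cyp2c40 at -1.97 ± 0.73, and near-identical copies within the Mup and Cyp families may share reads. Of the fold changes, 13 were negative and 2 positive in the male-biased list, and 15 were negative and 7 positive in the female-biased list, in groups whose Xist-high libraries were 5 of 7 in KO and 1 of 5 in WT. The Xist class follows the Y-linked counts, so sex is partly confounded with genotype in these lists. The part of the Xist class in these list values was not tested.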

How the data were processed

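Liver RNA was isolated with Trizol, and RNA with an integrity number over 8 was sequenced, per the labels' protocols. The deposited table holds raw read counts per gene symbol, as whole numbers not normalized by the authors. Reads were aligned with HISAT2 to mm10, per the submitters' processing notes. The counter, strand setting and annotation were not given in the sources used here. The genotype label gave the groups, also for KO replicate 7, whose title has another prefix, and replicates were numbered by accession.

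Genes were kept by filterByExpr (minimum count 10, minimum total 15), which kept 99.89% of the counts, and tested with edgeR 4.0.16 in R 4.3.3 (TMM, robust quasi-likelihood F-tests of KO against WT, Benjamini-Hochberg adjustment at 0.05). Each SE was taken as the log2 fold change divided by the root of its F statistic. A prior count of 2 was added for log2 CPM. Mean log2 CPM was compared by an exact two-sided permutation over 792 regroupings, with 0.00126 as the smallest p possible. Fitted and mean log2 differences are unlike measures and part where libraries differ widely. Correlations used 100000 resamples, or all orders under 10 libraries. Depth intervals cover counting error only and are not given for single genes, whose spread is between libraries. The fits across all genes, not the permutation tests, were tested on simulated data. Coordinates are RefSeq's on GRCm38.p6, the assembly of mm10, and exon lengths are from GENCODE M21.

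Named genes were the 10 axis genes, up to 4 others per list by smallest p, and the 5 genes closest to Igf1 in rank order. Mmp8, Stat5b, Cyp4a12b, Mup20, Cyp7b1, Mup11, Mup21, Alb and Trf were named after their values were seen, as were the cholangiocyte and adipose markers. The untested genes of the male-biased list were also named. The genes, lists and tests were chosen with earlier results of these data known. Alternatives were RLE and upper-quartile scaling, DESeq2 1.42.0, limma 3.58.1 (voom with and without sample weights), 2 filters, a fit without robust estimation, covariates (number range in the titles, Xist class, depth class) and each library left out. Depth subsets, interactions and centred correlations were added after seeing the data.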

Additional observations from a re-analysis of the deposited data

Results flagged for a closer look

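In 20 groups of values (10 genes in 2 genotypes), 1 library stood apart from its group by Dixon's criterion, where chance gives about 5%. Igfals in WT replicate 1 was at 4.41 log2 CPM, with the next WT library at 6.09, and this gap was 0.719 of the WT range, above the critical value of 0.71 for 5 libraries. The same library was the lowest of WT for Ghr, Prlr, Socs2, Cish, Igf1 and Igf1r. Without it the log2 fold change of Igfals was -1.91 (edgeR adjusted p = 0.154).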

How the results depend on the processing

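The signs of the log2 fold changes of Ghr, Prlr, Igf1, Igfals, Socs2, Igfbp3 and Igfbp2 stayed the same over all 25 alternative fits, with ranges of -1.97 to -1.002, -2.07 to -1.11, -3.39 to -1.58, -2.99 to -1.48, -0.79 to -0.21, 0.07 to 3.19 and 0.43 to 2.20. Adjusted p for Igf1 ran from 0.0141 (limma-voom with sample weights) to 0.466. At an adjusted p under 0.05 that fit called 4 of the 10 genes lower and 1 higher, and the other 24 fits called none. It called 938 higher and 1200 lower genes in all, against 247 and 242 in DESeq2, 1 and 4 in limma-voom without weights, 1 and 2 with depth class as covariate, 0 and 2 with title number range and in the deeper libraries, and 0 and 1 with upper quartile scaling, no filter and the 1 CPM filter. With 1 library left out, the counts ran from 0 to 14 higher (14 without KO replicate 6) and 0 to 51 lower (51 without KO replicate 6). At an unadjusted p under 0.05, 4 of the 10 genes were lower, against 1 (Igf1, shallower libraries) and 2 (Ghr and Prlr, deeper libraries), and 3 to 5 with a library left out, where Prlr was lost without WT replicate 3 and Cish gained without WT replicate 1. In place of 0 higher there was 1 with sample weights, with the Xist class, in the deeper libraries and without WT replicate 4, so that 0 to 1 were higher with a library left out. The causes were not tested.

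Signs turned where values were near 0. In the shallower libraries Cish was at 0.00318, Igfbp4 at 0.20 and Igf1r at -0.24, and Igf1r was at -0.0643 without sample weights in limma-voom and -0.20 with title number range. With a library left out, Igfbp4 ran from -0.15 to 0.10 and Igf1r from -0.21 to 0.32, and the difference of mean log2 CPM from -0.71 to 0.11 for Cish, -0.0446 to 1.03 for Igfbp2, -0.17 to 0.0466 for Igfbp4 and -0.45 to 0.0890 for Igf1r.

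Relations lost their call in smaller sets of libraries, and 2 of them with group means subtracted. Ghr and Igf1 had r = 0.55 in KO, 0.56 in Xist-high and 0.81 in shallower libraries, and 0.60 with group means subtracted. Ghr and Igfals had 0.91 in Xist-high libraries. Ghr and Prlr had 0.72 in KO and 0.82 in Xist-high libraries. Igf1 and Igfals had 0.70, 0.82 and 0.84 in KO, Xist-high and shallower libraries. Socs2 and Cish had 0.11, 0.22 and 0.41 in the same sets and 0.62 with group means subtracted. In Xist-high libraries Ghr and Cish had -0.0526 and Igf1 and Igfbp3 0.41, while the last pair had -0.98 in Xist-low libraries (exact permutation, adjusted p = 0.00667). That set holds 2 KO and 4 WT libraries, and its r includes the genotype difference. Over all 12 libraries with group means subtracted, Igf1 and Igfbp3 had r = -0.27.

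No paired analysis was possible because replicate numbers only follow the order of accessions and the labels name no shared animal, litter or batch.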

Other observations

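The level of Igf1 set against that of its binding proteins was lower in most KO tumours. The ratio of Igf1 to the summed Igfbp1 to Igfbp6, each per kb of exon, was 0.000193 (KO replicate 2) to 0.0158 (KO replicate 6) in KO and 0.00406 (WT replicate 1) to 0.0574 (WT replicate 2) in WT. KO replicates 5 (0.0113) and 6 were the KO libraries above WT replicate 1, and all 7 KO libraries lay below the other 4 WT libraries. The ratio was drawn up after the data were seen and was not tested.

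The Igfbp3 difference between KO and WT was compared between Xist classes in edgeR by an interaction term, which was 4.18 on the log2 scale (adjusted p = 0.602), higher in the Xist-low libraries. It rests on WT replicate 4, the single Xist-high WT library at 428 CPM, against 69.4 to 364 CPM in the 5 Xist-high KO libraries. In the Xist-low libraries Igfbp3 was at 218 and 458 CPM in KO and 14.2 to 127 CPM in WT. Across all genes 1 passed that interaction test and 1009 had an unadjusted p under 0.05. By depth class the interaction for Igfbp3 was -3.13 (edgeR adjusted p = 0.531), with 0 of all genes past the threshold and 1401 at an unadjusted p under 0.05.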
